A study of Mus musculus with 346 samples.

Results

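Collagens are triple helices of alpha chains, and each gene of the family encodes 1 such chain. The family was taken here as the 37 genes, of 20474 in the deposited table, whose name is Col followed by a type number, the letter a and a chain number, and no measured value entered that choice. It comprised 10 fibrillar genes, 5 of basement membrane type IV and 22 others, among them 4 of type VI, 8 fibril-associated collagens, 4 transmembrane collagens and 2 multiplexins. The chains were read in 346 single mouse cells by Smart-seq2, which sequences full-length transcripts of 1 cell at a time.

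All cells came from Tg(Prox1-EGFP) embryos, labelled genotype Prox1-GFP, in which green fluorescent protein marks cells using the Prox1 gene, a homeobox factor of the early liver and pancreas, and GFP+ cells were sorted into plates. Plate 1A held 82 foregut cells of embryonic day (E) 8.5, labelled as endoderm, and 4 plates held E10.5 buds: 78 cells of the liver bud (plate 5A), 27 of the ventral pancreatic bud (plate 3), and 48 and 38 of the dorsal pancreatic bud (plates 2A and 2B). The last plate held 73 cells of the E14.5 pancreas, labelled as epithelium (plate 4A). No wild-type or GFP-negative cells are among them, and neither the strain background nor the number of embryos behind each plate was given in the labels. No label ties a cell to an animal, so each plate counts as 1 sample and no difference below carries a test; SDs, ranges and intervals describe cells and counting error only.

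Several plates held unlike cells and were split by 1 gene each. On the E14.5 plate 58 cells had Col1a1, the main chain of type I collagen, at a log2 level of at least 5 (Col1a1-high) and 15 did not (Col1a1-low). In the dorsal bud 66 cells had the epithelial adhesion gene Epcam at 5 or more (Epcam-high) and 20 did not (Epcam-low, 7 on plate 2A and 13 on plate 2B). In the liver bud 46 cells had the fetal liver gene Afp at 10 or more (Afp-high) and 32 did not (Afp-low). A level is log2 of normalized reads plus 1, where reads are divided by 1 size factor per cell. None of the splits passed through a crowd of cells: Col1a1 was 0 in all cells below its threshold and at least 8.47 above it, Epcam was at most 2.15 below and at least 5.48 above, and Afp at most 6.57 below and at least 11.60 above.

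Defining markers went against 2 of the labels. All 7 epithelial markers, Epcam and Cdh1 included, were undetected in the 58 Col1a1-high cells of the plate labelled pancreatic epithelium, 54 of them carried at least 3 of 10 mesenchyme markers, and only 10 had detectable Prox1; among the 15 Col1a1-low cells 13 carried at least 3 epithelial markers. Of the 82 cells labelled foregut endoderm, 59 carried at least 3 of 8 neural tube markers, 12 at least 3 epithelial and 11 at least 3 cardiac ones. Epcam-low dorsal cells lacked Epcam and Cdh1, and 11 of 20 carried mesenchyme markers. Some Afp-low liver cells carried cardiac (10 of 32), mesenchyme (5) or endothelial (3) markers, others carried none of these, and none carried an epithelial set. Of the remaining sets, 46 of 46 Afp-high liver cells carried hepatoblast markers, and 27 of 27 ventral and 64 of 66 Epcam-high dorsal cells epithelial ones. The ventral set was mixed: 21 of its 27 cells also carried hepatoblast markers, 9 carried pancreatic progenitor markers, and Afp was detected in 19. Total reads per cell lay between 510138 and 3431448, with medians of 2333716.5 and 2657066 in the Afp-low and Afp-high liver sets against 760738 to 1029016.5 in the others. Detected means at least 5 normalized reads of the gene in the cell.

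Fibrillar collagens are secreted as procollagen, trimmed, and packed into the fibrils that give connective tissue its tensile strength; in developing organs they are made mainly by mesenchymal cells. Type IV chains form the sheet-like network of the basement membrane that lies under epithelia and around vessels, and the multiplexin type XVIII sits in the same membranes and is the parent of the fragment endostatin. Type VI makes beaded filaments that join basement membranes to the interstitial matrix.

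Of the promoters, 4 bear on the results, and all are from the RefSeq table on GRCm38.p6, 250 bases before to 50 after the annotated start. Col4a1 and Col4a2 lie head to head on chromosome 8, their gene models overlap by 22 bases, and their windows share 78 bases, chr8:11312777-11312854, which are in capitals and read the same in both after reverse complement. The Col4a1 window is chr8:11312777-11313076 on the minus strand and the Col4a2 window chr8:11312555-11312854 on the plus strand.
Col4a1: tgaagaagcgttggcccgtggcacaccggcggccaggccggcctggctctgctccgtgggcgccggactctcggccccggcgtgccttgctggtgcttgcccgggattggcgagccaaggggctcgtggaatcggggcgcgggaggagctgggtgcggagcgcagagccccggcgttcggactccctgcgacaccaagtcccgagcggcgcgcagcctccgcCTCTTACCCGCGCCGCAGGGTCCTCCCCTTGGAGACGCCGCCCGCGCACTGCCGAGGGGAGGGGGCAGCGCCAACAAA
Col4a2: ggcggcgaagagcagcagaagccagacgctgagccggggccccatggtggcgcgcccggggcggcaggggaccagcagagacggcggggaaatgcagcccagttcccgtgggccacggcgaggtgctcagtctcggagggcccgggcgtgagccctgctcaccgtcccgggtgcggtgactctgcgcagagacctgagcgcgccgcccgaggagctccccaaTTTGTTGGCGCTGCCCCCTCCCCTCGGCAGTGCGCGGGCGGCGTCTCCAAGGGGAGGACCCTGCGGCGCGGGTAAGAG
Col1a2 and Col3a1 encode chains of the leading interstitial fibrils, and their windows are chr6:4505368-4505667 and chr1:45311288-45311587, both on the plus strand. Capitals mark matches to 3 short motifs, each searched for on both strands as it stands and as its reverse complement, with no overlap between matches here. The motifs were the letters CCAAT of the CCAAT box, then GGGCGG as a GC box, and lastly TATAAA as a TATA box.
Col1a2: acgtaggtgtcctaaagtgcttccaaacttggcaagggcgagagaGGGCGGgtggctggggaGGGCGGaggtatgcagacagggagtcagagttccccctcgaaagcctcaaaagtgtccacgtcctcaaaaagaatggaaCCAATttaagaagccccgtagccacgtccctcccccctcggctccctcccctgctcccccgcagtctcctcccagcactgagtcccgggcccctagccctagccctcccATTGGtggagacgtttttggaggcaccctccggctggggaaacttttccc
Col3a1: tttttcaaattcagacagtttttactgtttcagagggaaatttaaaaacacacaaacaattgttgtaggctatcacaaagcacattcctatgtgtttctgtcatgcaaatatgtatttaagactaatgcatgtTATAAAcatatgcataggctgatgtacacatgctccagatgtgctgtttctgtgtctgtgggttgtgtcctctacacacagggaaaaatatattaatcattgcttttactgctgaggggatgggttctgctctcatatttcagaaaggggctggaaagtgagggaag
The Col1a2 window is 61% G and C, with 2 matches to CCAAT and 2 to GGGCGG, and the Col3a1 window is 37.7% G and C with 1 match to TATAAA. Both type IV windows are richer, at 74% for Col4a1 and 73.7% for Col4a2, against 53.8% over all windows. Windows were found for 28 of the 37 genes, 31 windows in all; 20 of the 31 (64.5%) held GGGCGG, 11 (35.5%) CCAAT and 4 (12.9%) TATAAA, against 35.7%, 37.4% and 13.6% of all 32851 windows. A match is a string of letters in a window and says nothing of binding.

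**Figure D1:**
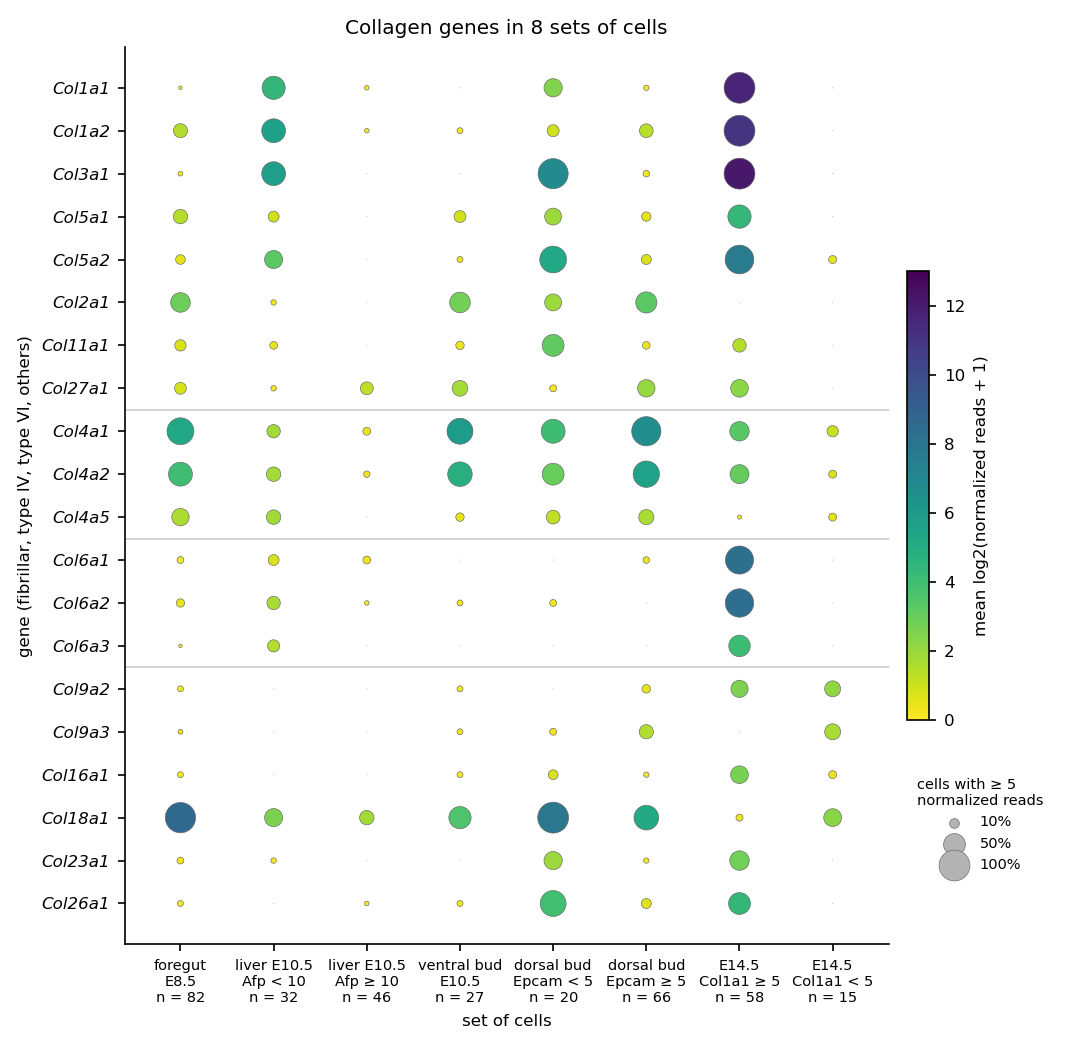
Mean level, log2(normalized reads + 1), as colour and the percent of cells with at least 5 normalized reads as dot size, for 20 collagen genes (rows) in the 8 sets of cells (columns). Type I, III and VI dots are largest in Col1a1-high E14.5 cells, the Col4a1 and Col4a2 dots in Epcam-high dorsal cells, and the Col18a1 dots in foregut and Epcam-low dorsal cells.

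Col1a1 (ENSMUSG00000001506.10, GRCm38 chr11:94936224-94953042) encodes the chain present in 2 copies in the type I helix. Its level in the 58 Col1a1-high E14.5 cells ran from 8.47 over a median of 11.52 to 14.51, while it was 0 in all 15 Col1a1-low cells, as the split set it. In the Afp-low liver it ran from 0 over 4.11 to 11.23 with 18 of 32 cells detected (56.2%, exact Clopper-Pearson 95% interval 37.7% to 73.6%), against 1 of 46 Afp-high cells. In the dorsal bud it was found in 7 of 20 Epcam-low cells, against 2 of 66 Epcam-high cells. In the remaining sets it was close to absent: 0 of 27 ventral cells, which allows up to 11.1%, and 1 of 82 foregut cells.

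Col1a2 (chr6:4504814-4541544), the other chain of the type I helix, ran from 7.41 over 11.22 to 13.58 in Col1a1-high cells and was 0 in all Col1a1-low cells. In the Afp-low liver it ran from 0 over 6.91 to 11.999 with 19 of 32 cells, against 1 of 46 Afp-high cells. Outside those sets Col1a2 was spread differently from Col1a1: it was detected in 17 of 82 foregut cells (20.7%, 12.6% to 31.1%) and 13 of 66 Epcam-high dorsal cells (19.7%, 10.9% to 31.3%), where Col1a1 was in 1 and 2. In Epcam-low dorsal cells the pattern was the other way, with Col1a2 in 3 of 20 cells and Col1a1 in 7.

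Col3a1 (ENSMUSG00000026043.18, chr1:45311538-45349706) encodes the single chain of type III collagen, which forms thin fibrils with type I. Its level ran from 9.75 over 12.20 to 13.68 in Col1a1-high E14.5 cells and was 0 in all 15 Col1a1-low cells. It ran from 0 over 7.05 to 9.71 in Epcam-low dorsal cells, where 19 of 20 had it (95%, 75.1% to 99.9%), against 3 of 66 Epcam-high cells (4.55%, 0.949% to 12.7%). In the Afp-low liver it ran from 0 over 8.56 to 11.89 with 19 of 32 cells, against 0 of 46 Afp-high cells, which allows up to 6.52%. No ventral cell and 2 of 82 foregut cells had it. In the dorsal bud Col3a1 was thus high where Epcam was low, and 10 of the 20 Epcam-low cells had it without either type I chain.

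**Figure D2:**
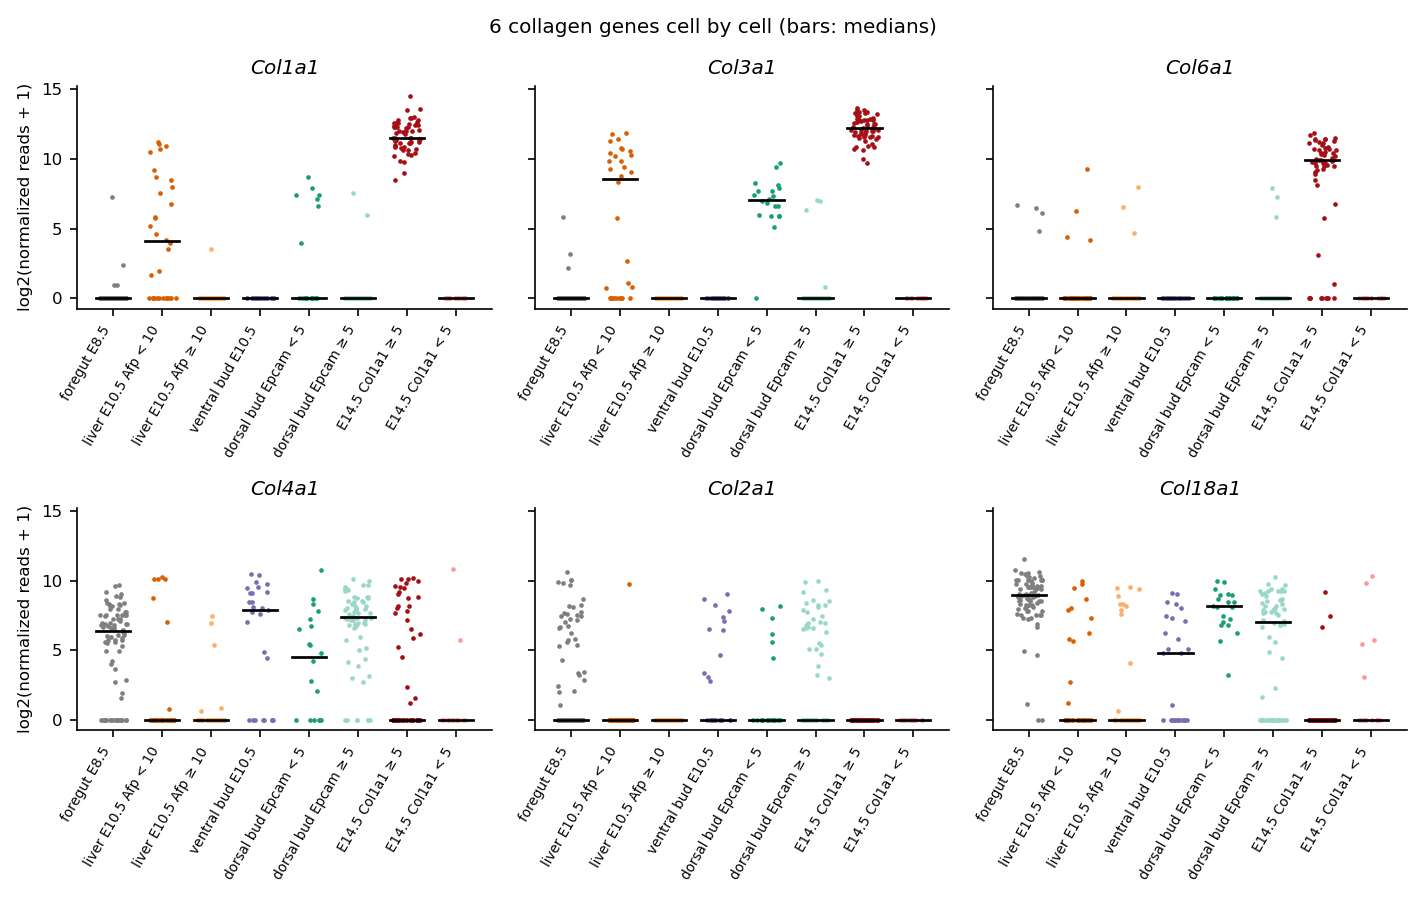
Level of 6 collagen genes, log2(normalized reads + 1), in every cell of the 8 sets, with bars at the medians. Col1a1 and Col3a1 points of the 58 Col1a1-high E14.5 cells lie in 1 high band, with all Col3a1 values at 9.75 or above, while Col4a1 and Col18a1 spread over several sets and many cells are at 0.

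Type V chains, which start and thin the fibrils of type I, were at lower levels than type I in Col1a1-high cells, but not in every set. Col5a2 ran from 0 over 8.42 to 12.04 in Col1a1-high cells (50 of 58), against 1 of 15 Col1a1-low cells. It was in 15 of 20 Epcam-low dorsal cells (0 over 5.85 to 9.04), against 7 of 66 Epcam-high cells, and in 11 of 32 Afp-low liver cells. Type I chains were scarcer in those 20 Epcam-low cells, with Col1a1 in 7 and Col1a2 in 3. Col5a1 averaged 4.35 ± 4.02 (SD over 58 cells) in Col1a1-high cells and 0 in Col1a1-low cells, and reached 18 of 82 foregut cells. Col5a2 stands tail to tail with Col3a1, 24614 bases away on chromosome 1.

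Fibrillar chains known from cartilage were spread over further sets. Col2a1, the chain of type II, was detected in 0 of 73 E14.5 cells and 0 of 46 Afp-high liver cells, yet it was detected in 33 of 82 foregut cells (40.2%, 29.6% to 51.7%), 12 of 27 ventral cells and 31 of 66 Epcam-high dorsal cells (46.97%, 34.6% to 59.7%). Its highest level was 10.61, in a foregut cell. Col11a1, a chain of type XI that shares fibrils with type II, had its highest mean in Epcam-low dorsal cells, 3.20 ± 3.59 (10 of 20 cells), against 0.37 ± 1.51 in Epcam-high cells (4 of 66). Col27a1, a short-helix fibrillar chain, was in 19 of 58 Col1a1-high E14.5, 8 of 46 Afp-high liver, 7 of 27 ventral and 21 of 66 Epcam-high dorsal cells, and each of the other fibrillar genes described here was in at most 1 Afp-high cell.

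Basement membrane chains were commonest in other sets than the interstitial ones. Col4a1 (ENSMUSG00000031502.11, chr8:11198423-11312826), which pairs with Col4a2 in the common type IV helix, was in 3 of 46 Afp-high liver cells (6.52%, 1.37% to 17.9%), with a highest level of 7.44. It ran from 0 over 7.86 to 10.43 in ventral cells (19 of 27) and from 0 over 7.39 to 10.13 in Epcam-high dorsal cells, 59 of 66 (89.4%, 79.4% to 95.6%). In foregut cells it ran from 0 over 6.40 to 9.67 (62 of 82). Afp-low cells of the liver plate had it in 6 of 32, so both liver sets had lower shares than the pancreatic buds and the foregut. Col1a1-high E14.5 cells had it in 23 of 58, against 2 of 15 Col1a1-low cells. Among Epcam-low dorsal cells, where Col3a1 was common, 12 of 20 had Col4a1.

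Col4a2 (chr8:11312805-11449287) followed at lower shares: 2 of 46 Afp-high liver cells, 17 of 27 ventral cells, 48 of 66 Epcam-high dorsal cells and 49 of 82 foregut cells. Epcam-low dorsal cells had it in 10 of 20. Col4a5, a chain of the minor type IV helix, was scarcer, in 7 of 32 Afp-low and 0 of 46 Afp-high liver cells, 16 of 66 Epcam-high dorsal cells and 26 of 82 foregut cells. Type IV without type I or III was the state of most ventral, Epcam-high dorsal and foregut cells: 21 of 27, 48 of 66 and 58 of 82. The dorsal plates differed, with 35 of all 48 cells on plate 2A and 13 of all 38 on plate 2B in this state. It was found in 0 of 20 Epcam-low dorsal cells. Type IV beside type III occurred in 35 of 58 Col1a1-high cells and 15 of 20 Epcam-low dorsal cells, so the classes were not exclusive.

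Col18a1 (ENSMUSG00000001435.15, chr10:77052178-77166548), the multiplexin of basement membranes, was the collagen found in most foregut cells. Its level ran from 0 over 8.95 to 11.52 there, in 79 of 82 cells (96.3%, 89.7% to 99.2%). By contrast it was in 3 of 58 Col1a1-high E14.5 cells (5.17%, 1.08% to 14.4%), against 5 of 15 Col1a1-low cells, in 10 of 46 Afp-high liver cells and in 14 of 27 ventral cells. It was in all 20 Epcam-low dorsal cells (3.21 over 8.15 to 9.94), against 42 of 66 Epcam-high cells (0 over 7.01 to 10.23). The 2 sets in which type III was commonest parted in this gene: 3 of the 58 Col1a1-high E14.5 cells and 19 of the 20 Epcam-low dorsal cells had types XVIII and III together.

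Type VI chains were found mainly in the Col1a1-high E14.5 cells and in some cells of the Afp-low liver. Col6a1 (chr10:76708792-76726168) ran from 0 over 9.90 to 11.89 (48 of 58), against 0 of 15 Col1a1-low cells, which allows up to 20%. Col6a2 ran from 0 over 10.05 to 12.15 (49 of 58) and Col6a3 was in 28 of 58. In the Afp-low liver the 3 chains were in 4, 6 and 5 of 32 cells. Epcam-low dorsal cells, of which 11 of 20 carried mesenchyme markers, had them in 0, 1 and 0 of 20 cells, and a count of 0 there allows up to 15%.

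Of the remaining described genes, Col26a1, a small collagen with an EMI domain, was in 29 of 58 Col1a1-high cells and 14 of 20 Epcam-low dorsal cells, against 0 of 15 Col1a1-low and 7 of 66 Epcam-high cells. Transmembrane Col23a1 shared that pattern, with 23 of 58 and 7 of 20, against 0 of 15 and 2 of 66. Fibril-associated Col16a1 was in 19 of 58 Col1a1-high cells. The type IX chains, which decorate type II fibrils in cartilage, went separate ways: Col9a2 was in 18 of 58 Col1a1-high and 4 of 15 Col1a1-low cells, and Col9a3 in 0 of 58 and 4 of 15, as well as in 14 of 66 Epcam-high dorsal cells. The other 17 collagens (Col4a3, Col4a6, Col6a6, Col7a1, Col8a1, Col8a2, Col9a1, Col11a2, Col12a1, Col13a1, Col14a1, Col15a1, Col17a1, Col20a1, Col22a1, Col24a1 and Col25a1) were rare, each in 3 to 20 of the 346 cells, with no mean in any set above 1.92.

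Counted per cell, collagen genes were most numerous in the Col1a1-high E14.5 cells, at 5 to 16 with a median of 11, against 0 to 5 with a median of 1 in the Col1a1-low cells. Epcam-low dorsal cells had 4 to 11 (median 8), against 1 to 11 (median 4) in Epcam-high cells. Afp-low liver cells had 0 to 8 (median 4), against 0 to 3 (median 0) in Afp-high cells, of which 28 of 46 had none. The foregut and ventral medians were both 4. The number ranked the sets differently from the number of all genes, whose medians were 2748 in Col1a1-high E14.5, 5356 in Epcam-low dorsal, 4864 in Epcam-high dorsal and 5793.5 in foregut cells.

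**Figure D3:**
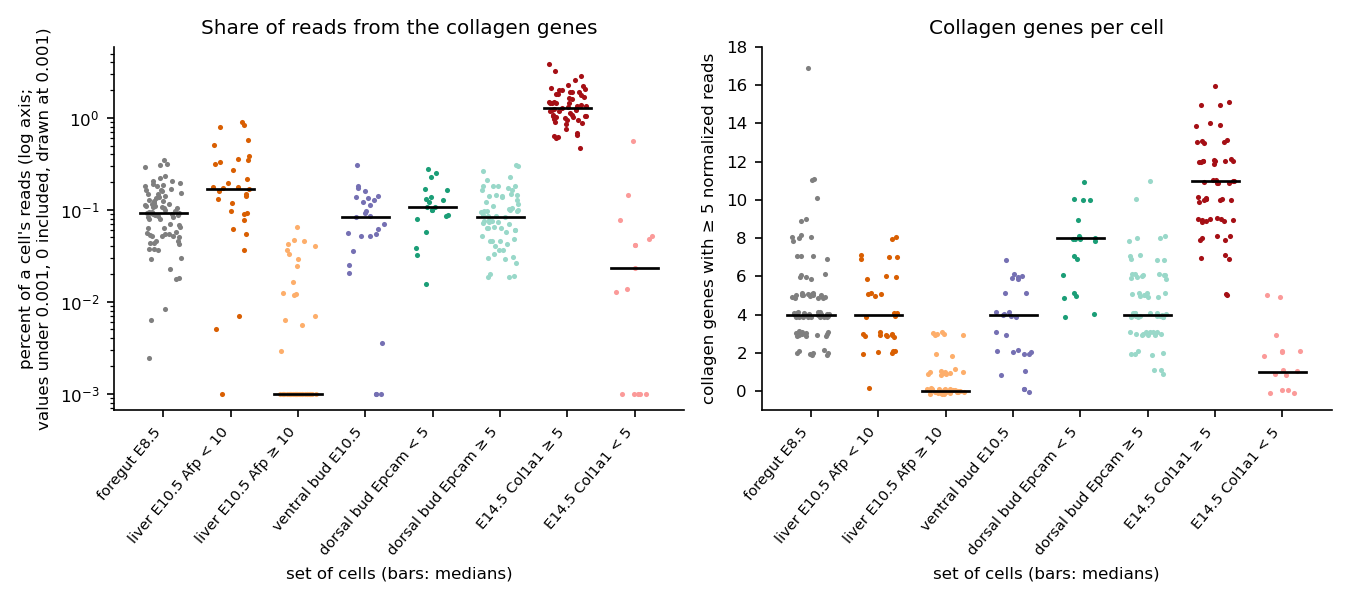
Left, percent of a cell's reads that came from the 37 collagen genes (log axis, points are cells, bars medians); right, collagen genes detected per cell. The 58 Col1a1-high E14.5 cells lie between 0.467% and 3.90%, above the median of every other set, and Afp-high liver cells lie at or near 0 in both panels.

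Collagens took 0.467% to 3.90% of the reads of Col1a1-high E14.5 cells (median 1.295%), against 0% to 0.567% (median 0.0233%) in Col1a1-low cells. Fibrillar genes made up most of it in Col1a1-high cells, with a median of 0.967%, and type VI had 0.194%. In the dorsal bud the totals were close, with medians of 0.108% in Epcam-low and 0.0843% in Epcam-high cells, but the basement membrane part had a median of 0.00569% in Epcam-low cells. That part was 0.0519% in ventral and 0.0368% in Epcam-high dorsal cells. In the liver collagens took a median of 0.169% in Afp-low cells, against at most 0.0654% in any Afp-high cell.

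Order between genes was read per kilobase of the exon union of each gene (GENCODE M21), as mean normalized reads per kb. The union takes in every annotated exon of a gene and no other length was tried, so close ranks depend on it. Col1a1 with 643, Col3a1 with 555, Col6a1 with 263 and Col1a2 with 228 led the Col1a1-high E14.5 cells. Col18a1 led the foregut with 87.8, which was 55.6% of the per-kb sum of all collagens there, ahead of Col4a1 with 18.4 and Col2a1 with 12.95. In ventral cells Col4a1 (48.4) and Col4a2 (31.4) stood before Col18a1 (14.4), whereas in Epcam-high dorsal cells Col4a1 (34.2), Col4a2 (33.2) and Col18a1 (32.1) were level within the spread of cells. Epcam-low dorsal cells had Col18a1 (48.9) before Col4a1 (21.5) and Col3a1 (20.1). The Col4a1 mean there leaned on 1 cell of plate 2A, at a level of 10.79 and without Col3a1, so the order of these 2 genes is not firm. Afp-low liver cells were led by Col3a1 (82.6), Col1a2 (62.9) and Col1a1 (56.002), and Afp-high cells by Col18a1 (12.3), with every other collagen at 2.98 or less.

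The E14.5 plate was compared first, Col1a1-high minus Col1a1-low, with a difference of at least 1 in mean level counted as higher or lower. Of the 37 collagens 19 were higher, 3 lower, 1 was within 1 and 14 had a mean under 1 in both sets. Over all 8802 genes measured, 19.5% were higher and 31.3% lower, but since a collagen defined the split nothing is read from the count. The largest differences were 12.17 for Col3a1, 11.64 for Col1a1, 10.98 for Col1a2, 8.27 for Col6a1, 8.25 for Col6a2 and 7.13 for Col5a2, and that of Col1a1 was set by the split. Col18a1 (-1.89), Col9a3 (-1.70) and Col11a2 (-1.07) were lower.

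In the dorsal bud, Epcam-low minus Epcam-high, 8 of the 16 collagens measured were higher, against 27.6% of the 10069 genes measured, and 5 were lower, against 12.7%, while 21 of the 37 had a mean under 1 in both sets. A gene measured only through the set where it is high had to differ, so these shares are read only beside those of all genes measured the same way. Both shares of the collagens measured, 50% and 31.2%, were above those of all genes. Of the fibrillar genes 5 were higher and 2 lower, and of the type IV genes 0 were higher and 2 lower. Col3a1 averaged 6.83 ± 1.99 in Epcam-low and 0.32 ± 1.43 in Epcam-high cells (difference 6.51), Col18a1 7.83 ± 1.60 and 5.16 ± 3.96 (2.67), and Col4a1 4.05 ± 3.61 and 6.66 ± 2.83 (-2.61). Col5a2 (4.50), Col26a1 (3.31), Col11a1 (2.82), Col1a1 (2.25), Col23a1 (1.80) and Col5a1 (1.35) were also higher, and Col4a2 (-2.47), Col27a1 (-1.74), Col9a3 (-1.33) and Col2a1 (-1.28) lower.

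Both dorsal plates gave these directions. The difference of Col3a1 was 6.77 on plate 2A and 6.02 on plate 2B, that of Col18a1 3.00 and 2.29, and that of Col4a1 -2.45 and -2.52. Some of the 10 mesenchyme markers were commoner in the set where Col3a1 was higher: 11 of 20 Epcam-low cells carried at least 3, against 4 of 66 Epcam-high cells. All 3 Epcam-high cells with Col3a1 were among those 4. The summed level of the 10 mesenchyme markers ran from 0 over 17.69 to 25.24 in Epcam-low cells and from 0 over 0 to 30.37 in Epcam-high cells, and Pdgfrb, Twist1, Lum, Dcn, Postn and Thy1 were undetected in Epcam-low cells. All 11 marked Epcam-low cells had Col3a1, and so did 8 of the 9 unmarked ones. The part that these cells have in the difference was not tested.

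**Figure D4:**
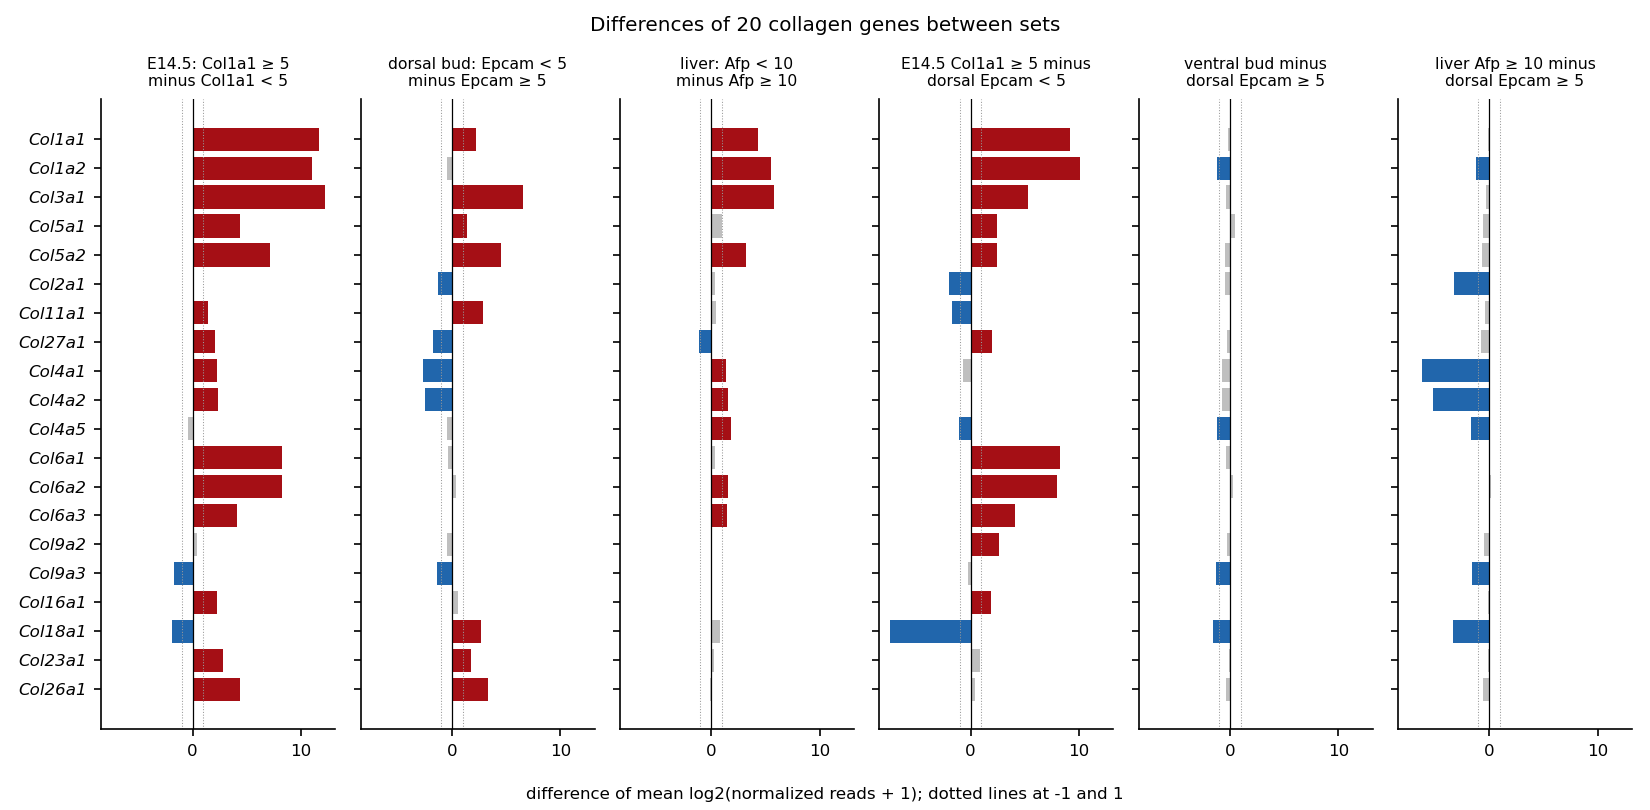
Difference of mean level (log2 scale, first set minus second) for 20 collagen genes in 6 comparisons. Bars of types I, III and VI point up for Col1a1-high E14.5 cells in both of their panels, with Col3a1 at 12.17 and 5.34, and bars of Col4a1, Col4a2 and Col18a1 point down for Afp-high liver cells against Epcam-high dorsal cells.

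Col1a1-high E14.5 cells were also set against the Epcam-low dorsal cells of E10.5. Here 14 of the 23 collagens measured (60.9%) were higher, against 5.64% of 9405 genes measured, and 4 (17.4%) were lower, against 62.3%. Col1a1, which chose the first set, is among the 14, so nothing about the family is read from this count or from the median difference, which was 1.92 over these 23 and -1.38 over all genes measured. Col1a1-high cells also held fewer genes per cell. Col1a2 averaged 10.98 ± 1.36 in Col1a1-high and 0.91 ± 1.92 in Epcam-low cells (difference 10.06), and Col1a1 11.64 ± 1.11 and 2.46 ± 3.54 (9.18); for Col1a1 the first value was set by the split. Col6a1 (8.27), Col6a2 (7.94), Col3a1 (5.34) and Col6a3 (4.11) came next. Col18a1 ran the other way, at 0.40 ± 1.75 and 7.83 ± 1.60 (-7.43), with Col2a1 (-1.98), Col11a1 (-1.75) and Col4a5 (-1.07) also lower. Stage, plate and dissection all change between the sets, and they cannot be told apart.

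Among epithelial cells of E10.5, ventral minus Epcam-high dorsal cells gave 1 of the 9 collagens measured higher, against 4.64% of 9549 genes, and 4 lower (44.4%), against 34.6%. The lower ones were Col18a1 (-1.54), Col9a3 (-1.32), Col1a2 (-1.23) and Col4a5 (-1.17), a share near that of all genes and no result about collagens as a family. The higher one was Col9a1 by 1.03, on 4 ventral and 1 dorsal cells, and it was singled out after its values were seen. Col4a1, Col4a2, Col2a1 and Col27a1 differed by less than 1 between the buds, within cell SDs of 2.83 to 4.14 for Col4a1 and Col4a2.

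Cells of 1 set that carried different marker lists also differed in collagens. The 12 foregut cells with epithelial markers had Col1a2 in 8, Col2a1 in 8 and Col4a1 in all 12, against 9, 25 and 50 of the 70 foregut cells without them. The 59 foregut cells with neural tube markers had Col1a2 in 4 and Col2a1 in 18, against 13 and 15 of the 23 without. Col5a2 was in 7 of the 11 foregut cells with cardiac markers, against 1 of 71 without. Col18a1 did not follow these lists, at mean levels of 8.48 ± 0.96 with and 8.62 ± 2.14 without epithelial markers.

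Among Epcam-high dorsal cells 21 carried at least 3 endocrine markers. They had Col27a1 in 0, Col2a1 in 3 and Col18a1 in 9, against 21, 28 and 33 of the 45 without, whereas Col4a1 was in 18 and 41. The 18 cells with pancreatic progenitor markers had Col27a1 in 11 and Col18a1 in 15, against 10 and 27 of the 48 without. In the ventral bud Col4a1 was in 17 of the 21 cells with hepatoblast markers, against 2 of the 6 without.

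Liver cells were compared within their plate and with the dorsal bud. Afp-low minus Afp-high gave 10 of the 12 collagens measured higher (83.3%), against 10.1% of 7487 genes, and 1 lower (Col27a1, -1.09), against 44.6%. The 10 were Col3a1 (5.79), Col1a2 (5.52), Col1a1 (4.30), Col5a2 (3.21), Col4a5 (1.79), Col6a2 (1.55), Col4a2 (1.52), Col6a3 (1.49), Col4a1 (1.32) and Col4a6 (1.18). All 10 had Afp-high means of 0.46 or less and were measured only through the Afp-low set, so nothing about the family is read from their share. Cardiac markers were carried by 10 of the 32 Afp-low and 0 of the 46 Afp-high cells, with summed levels of up to 75.14 and 10.60. Mesenchyme markers were carried by 5 Afp-low and 0 Afp-high cells, with sums of up to 31.75 and 0.79. Col3a1 was in 7 of the 10 cardiac-marked and 12 of the 22 other Afp-low cells. By mesenchyme markers, it was in 3 of the 5 marked and 16 of the 27 unmarked Afp-low cells. The 3 endothelial-marked cells had Col4a2 in all 3 and no type I or III. The part of these cell types in the differences was not tested.

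Afp-high liver minus Epcam-high dorsal cells gave 0 of the 8 collagens measured higher, against 15.5% of 9744 genes, and 7 lower (87.5%), against 46.3%. The 7 were Col4a1 (-6.20), Col4a2 (-5.21), Col18a1 (-3.37), Col2a1 (-3.26), Col4a5 (-1.65), Col9a3 (-1.55) and Col1a2 (-1.23), and 29 of the 37 had a mean under 1 in both. All of the 7 but Col18a1 were measured only through the dorsal set, so nothing about the family is read from their share. The liver cells were read more deeply, and after every cell was thinned to 500000 reads Col4a1 was in 3 of 46 Afp-high and 57 of 66 Epcam-high cells, and Col18a1 in 10 and 42. None of types I, III, IV, VI and XVIII was detected in 32 of 46 Afp-high cells, against 1 of 66 Epcam-high cells.

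Chains that share a helix were compared within cells, per kb, where both were detected. Lengths were the exon unions, 6.563 kb for Col1a1, 12.426 kb for Col1a2, 4.38 kb for Col6a1 and 8.326 kb for Col6a2. No other length was tried, and which chain of a pair comes out higher depends on it. Col1a1 exceeded Col1a2 in 53 of 58 Col1a1-high E14.5 cells, with a median ratio of 2.69, and log2 ratios ran from -0.99 to 5.53. In 13 Afp-low liver cells the median was 0.679, which became 1.09 in the 8 cells with at least 50 reads of both. For Col4a1 over Col4a2 the medians were 0.698 (10 Col1a1-high E14.5 cells), 1.07 (14 ventral cells), 1.31 (45 Epcam-high dorsal cells) and 1.48 (37 foregut cells). With at least 50 reads of both they were 0.574 (7 cells), 0.561 (9 cells), 1.40 (36 cells) and 1.45 (20 cells) in the same order, so the ventral median was above 1 at the lower minimum and below 1 at the higher. For Col6a1 over Col6a2 the median was 1.79 (41 Col1a1-high cells).

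The type I partners were often detected apart outside the Col1a1-high E14.5 cells, and not only at low levels. Col1a2 reached 9.65 in an Epcam-high dorsal cell without Col1a1, and Col1a1 reached 8.73 in an Epcam-low cell without Col1a2. No Epcam-low dorsal cell had both, with Col1a1 alone in 7 and Col1a2 alone in 3, and among Epcam-high cells Col1a2 was alone in 12, Col1a1 in 1 and both in 1. In the foregut Col1a2 was alone in 16 cells. Type IV partners were both detected in 45 of 66 Epcam-high dorsal cells and 37 of 82 foregut cells. The strand use of the authors' counting was not stated in the labels or headers, and reads from the overlap of the Col4a1 and Col4a2 models could count for either.

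**Figure D5:**
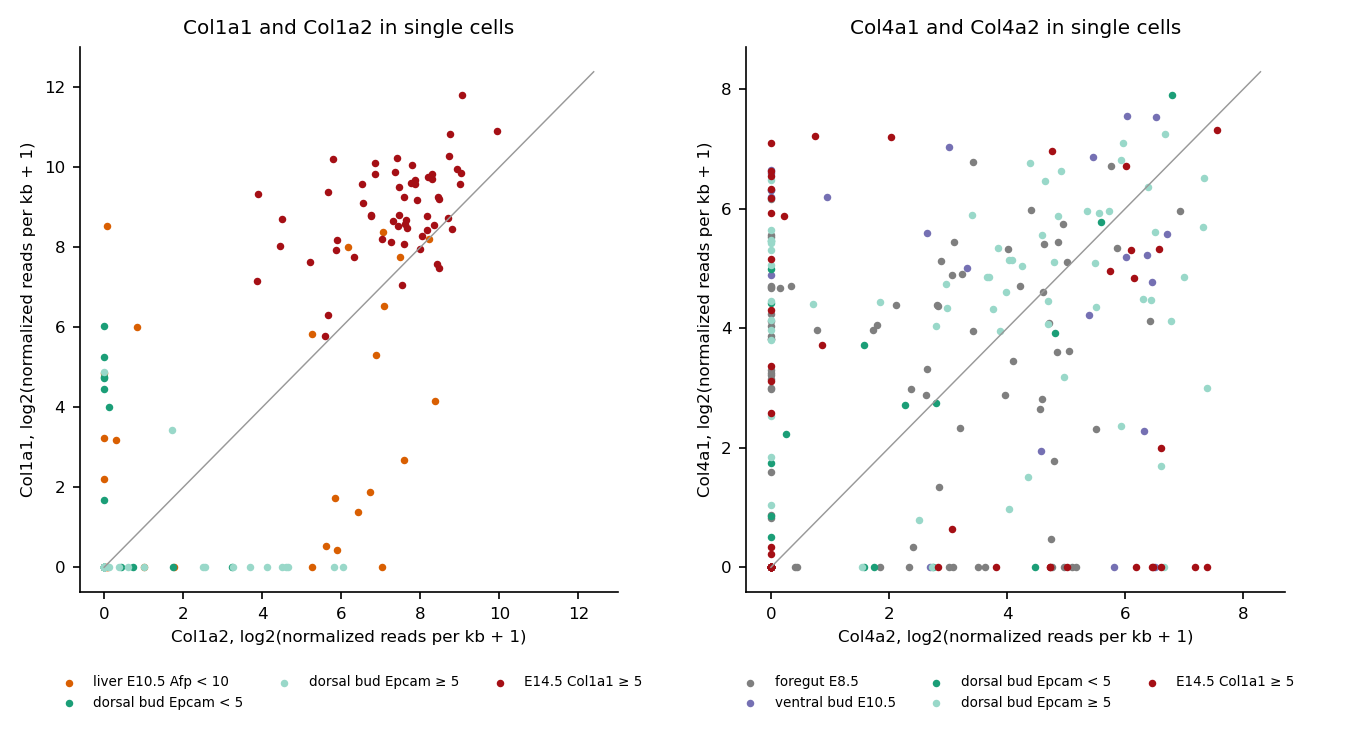
Level per kb of Col1a1 against Col1a2 (left) and of Col4a1 against Col4a2 (right) in single cells, with a line of equal level. Most Col1a1-high E14.5 cells, 53 of 58, lie on the Col1a1 side of the line, and type IV points scatter on both sides with many cells on an axis.

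Within the 58 Col1a1-high cells Pearson's r of levels was 0.64 for Col1a1 with Col3a1, 0.44 for Col1a1 with Col1a2, 0.10 for Col6a1 with Col6a2 and -0.05 for Col3a1 with Col5a2. Col4a1 with Col4a2 gave 0.34 over 66 Epcam-high dorsal cells and 0.09 over 82 foregut cells. Cells of a set share a plate and a size-factor scale, so these are descriptions, and the low ones are no finding.

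Over all 346 cells, whose sets differ widely, Col1a1 was most like Col3a1 (r = 0.91), Col1a2 (0.80), Col6a1 (0.77) and Col6a2 (0.76) among collagens, and most like Cd248 (0.83), Plagl1 (0.81), Dnm3os (0.80), Islr (0.80) and Nfib (0.79) among 9898 genes ranked. For Col4a1 the closest were ENSMUSG00000106106 (0.44), Igfbp2 (0.43), Slc16a3 (0.39), Prr36 (0.35) and the epithelial keratin Krt19 (0.35), with Col4a2 at 0.38.

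Genes that fold, modify and trim collagens are a list of 34. In Col1a1-high minus Col1a1-low cells 18 of the 27 measured were higher and 2 lower, against 19.5% and 31.3% of all genes measured. Sparc, a collagen-binding secreted glycoprotein, averaged 9.57 ± 2.39 in Col1a1-high and 1.96 ± 3.72 in Col1a1-low cells, and Serpinh1, the chaperone of procollagen, 10.003 ± 0.81 and 5.24 ± 3.25. Pcolce, which enhances trimming of procollagen, differed by 6.05 and Loxl1, a crosslinking oxidase, by 5.05, while Ppib and Mia2 were lower by -1.99 and -1.89. The procollagen peptidase gene Bmp1 was level, at 4.16 ± 4.37 and 4.30 ± 4.28.

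In the dorsal bud 8 of 26 measured genes of that list were higher and 6 lower in Epcam-low cells, against 27.6% and 12.7% of all genes, so the higher share was near the background. Sparc averaged 7.89 ± 1.20 in Epcam-low and 4.67 ± 3.75 in Epcam-high cells, and Serpinh1 8.87 ± 1.03 and 6.83 ± 2.41. Plod2, a lysyl hydroxylase, was lower by -2.86. In the liver 7 of 19 were higher and 6 lower in Afp-low cells, against 10.1% and 44.6%: Sparc differed by 6.86 and Serpinh1 by 5.45, while Ppib (-3.88), the procollagen cargo factor Mia2 (-4.01) and Pcolce2 (-3.80) were lower. Col1a1-high E14.5 minus Epcam-low dorsal cells gave 11 of 30 higher and 9 lower, against 5.64% and 62.3%, with Adamts2, which removes the amino propeptide, at 4.15 and the prolyl hydroxylase P4ha1 at -4.91. Ventral minus Epcam-high dorsal cells gave 3 of 23 higher and 11 lower, against 4.64% and 34.6% of all genes. Afp-high liver minus Epcam-high dorsal cells gave 2 of 23 higher and 15 lower, against 15.5% and 46.3%.

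Receptors, proteases and partners are lists of 9, 9 and 17. Ddr2, the receptor tyrosine kinase for fibrillar collagen, was in 48 of 58 Col1a1-high cells, 0 of 15 Col1a1-low cells and 0 of 20 Epcam-low dorsal cells, whereas Ddr1, the kinase typical of epithelia, averaged 2.23 ± 3.62 in Col1a1-high and 7.49 ± 3.32 in Col1a1-low cells. It was likewise lower in Epcam-low than in Epcam-high dorsal cells (-2.95). Among proteases and inhibitors 7 of 8 measured were higher in Col1a1-high than in Col1a1-low cells, against 19.5% of all genes, 4 of 7 in Epcam-low than in Epcam-high cells, against 27.6%, and 3 of 5 in Afp-low than in Afp-high liver cells, against 10.1%, with 0 lower in these. Col1a1-high E14.5 minus Epcam-low dorsal cells gave 5 of 8 higher and 2 lower, against 5.64% and 62.3%. Ventral minus Epcam-high dorsal cells gave 0 of 4 higher and 1 lower, and Afp-high liver minus Epcam-high dorsal cells 0 of 4 higher and 3 lower, against 34.6% and 46.3% of all genes lower. Mmp2, a gelatinase, averaged 8.79 ± 3.90 in Col1a1-high and 0.68 ± 2.62 in Col1a1-low cells, and 5.73 ± 3.56 in Epcam-low and 0.67 ± 2.15 in Epcam-high cells.

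Of the collagen-bound matrix genes 14 of 15 measured were higher in Col1a1-high than in Col1a1-low cells, against 19.5% of all genes, among them the fibril-binding proteoglycan Dcn (6.01), the basement membrane linker Nid1 (5.98), Postn (5.51) and Lum (4.19). Dcn, Postn and Lum are also among the 10 mesenchyme markers. Against Epcam-low dorsal cells 8 of 15 were higher and 3 lower, beside 5.64% and 62.3% of all genes: Dcn, Postn and Bgn were in 0 of 20 Epcam-low cells and in 40, 37 and 35 of 58 Col1a1-high cells. Fn1, fibronectin, ran the other way, at 0.95 ± 2.54 in Col1a1-high and 8.22 ± 1.06 in Epcam-low cells. In Afp-low minus Afp-high liver cells 6 of 9 were higher and 1, Fn1, was lower (-2.28), against 10.1% and 44.6% of all genes.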

How the data were processed

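The authors deposited 1 table of 20474 genes by 346 cells whose values are on a log2 scale, with empty entries read as 0; the unit was settled from the values, as log2 of reads divided by a size factor per cell, plus 1. After undoing this, 1647287 of 1647357 values lay within 0.01 of a whole read. The tools STAR 2.5.3, Cuffdiff 2.2.1 and Cufflinks and the build GRCm38 are named per the submitters' processing notes; for the counter, annotation and size factors there was no statement (not given in the sources used here). Of the 20474 rows 20472 were used, since 2 share a spreadsheet-made date as name. The series text counts 452 cells, of which those that passed quality control are in the table; no doublet caller was run.

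Means, SDs, shares and differences were computed over cells in python 3.11.15 with numpy 2.4.6, pandas 2.3.3, scipy 1.17.1 and matplotlib 3.10.9, and tested on simulated data. Since no label names an animal and the groups hold 1 plate each, or 2 for the dorsal bud, no p-value was computed. The members, lists and splits were chosen with earlier results of these data known. Collagens with a mean of at least 2, or detected in at least 25% of the cells, in a set are described and the others are given by range; each pathway list is illustrated with at most 6 genes, ranked by difference, and Ppib, Mia2 and Bmp1 at E14.5 were added after their values were seen. Intervals and limits of a count of 0 (3 divided by the cells) cover counting error only, since reads of PCR copies are not independent molecules. Gene models are from GENCODE M21 on GRCm38.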

Additional observations from a re-analysis of the deposited data

Results flagged for a closer look

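Col4a5, a chain of the minor type IV helix, differed between Epcam-low and Epcam-high dorsal cells in opposite directions on the 2 dorsal plates. On plate 2A its mean level was 3.47 in Epcam-low cells (4 of 7 cells detected) and 1.65 in Epcam-high cells (10 of 41), a difference of 1.82. On plate 2B it was 0 in Epcam-low cells (0 of 13) and 1.66 in Epcam-high cells (6 of 25), a difference of -1.66. The plates' differences are 3.48 apart, and that gap was not tested. Col4a5 is on the X chromosome and few cells carry it, so each value rests on 10 or fewer detected cells.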

How the results depend on the processing

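Of 162 recomputed counts of collagens higher or lower, 134 stayed within 1.5 times, and of 870 recomputed differences of at least 1 the sign held in 868 and the size in 825. The 2 that reversed were Col4a2 in Col1a1-high minus Col1a1-low E14.5 cells, -0.17 as a log2 ratio of linear means, and Col4a5 in Col1a1-high E14.5 minus Epcam-low dorsal cells, 0.14 with plate 2B alone. The totals of 162 and 870 include settings that could change nothing and say nothing of stability. No cell changed set with Col1a1 split at 3 or 8, Epcam at 3 or Afp at 8. The filter at 2000 genes and the dropped minimum mean also left all values as they were. With 10 in place of 1 added before the log, 1 collagen was lower in Col1a1-high than in Col1a1-low cells, 2 were lower in Epcam-low than in Epcam-high cells, 5 higher and 0 lower in Afp-low than in Afp-high cells, 2 lower in Col1a1-high than in Epcam-low cells, 0 higher and 1 lower in ventral than in Epcam-high cells, and 4 lower in Afp-high liver than in Epcam-high cells. As ratios of linear means the same comparisons gave 6 lower, 13 higher and 10 lower, 19 higher and 3 lower, 24 higher and 10 lower, 5 higher and 14 lower, and 2 higher and 21 lower, since few cells with many reads weigh more there. On plate 2A alone 3 were lower in Epcam-low cells. The 1 lower in Afp-low liver cells became 0 under scaling by total reads, median-of-ratios scaling, thinning, without cells with markers of other types, and without cells with cardiac markers, an alternative chosen after seeing the data. The 1 higher in ventral cells became 0 under median-of-ratios scaling, thinning and plate 2B alone. Apart from the alternatives' own construction, the causes were not tested.

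Scaling moved the median difference of all genes by more than 0.1 in the liver comparisons alone, by 0.19 and 0.22 for Afp-low minus Afp-high cells and by -0.12 and -0.22 for Afp-high minus Epcam-high cells, under total reads and median-of-ratios. Counts of cells with a gene stayed within their intervals in 479 cases over other detection limits and thinning, and left it in 1, Col1a1 in the Afp-high liver, with 0 cells thinned and 1 unthinned. The filter at 2000 genes removed no cell, and dropping the minimum mean could change no count. No paired analysis was possible because no result comes from a test; for the dorsal bud, whose 2 plates each hold both sets, differences are given per plate. With 1 plate in most groups, plate, dissection and stage cannot be separated, and depth limits what a 0 means in sets of 15 to 32 cells.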

Other observations

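A single foregut cell, singled out after its values were seen, held 17 collagen genes, the most of any cell, against a foregut median of 4. They were Col1a2, the type II chain Col2a1, the 4 type IV chains Col4a1, Col4a2, Col4a5 and Col4a6, Col5a1, Col6a1, Col6a3, all 3 type IX chains, both type XI chains, Col18a1, Col22a1 and Col27a1. It carried at least 3 epithelial markers and 6760 detected genes, above the foregut median of 5793.5. Col1a1 and Col3a1 were not among its collagens.

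The 4 Epcam-high dorsal cells with mesenchyme markers had Col26a1 in all 4, Col18a1 in all 4 and Col3a1 in 3, and Col4a2 in 0. Of the 62 Epcam-high cells without those markers, Col26a1 was in 3, Col18a1 in 38, Col3a1 in 0 and Col4a2 in 48.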
